A study of Homo sapiens with 6 samples.

Results

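The 10 genes described here are the globin genes of the deposited table, HBA1, HBA2, HBZ, HBQ1, HBB, HBD, HBG1, HBG2 and HBE1, together with AHSP, taken by name from a table of 14821 genes. All 10 were in the table and all 10 passed a filter on low counts (3 or more of the 6 libraries at 1 CPM or above). F36P is an established human acute erythroid leukaemia line, and its messenger RNA was sequenced in 3 libraries of cells carrying the MSCV-PIG-AM-ERG retroviral plasmid (ERG) and 3 libraries of cells carrying the empty MSCV-PIG plasmid (vector). Both groups had been kept in 1 µg/ml puromycin for 4 days, and the submitters ask how ERG, an ETS-family transcription factor, inhibits erythroid differentiation. The labels call the replicates biological without giving their cultures or transductions, so p-values measure only the spread between these libraries. In bulk RNA, fewer haemoglobin-making cells and less globin RNA per cell cannot be told apart.

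A haemoglobin molecule pairs alpha-like with beta-like chains. The alpha-like genes lie on chromosome 16 in the order HBZ (embryonic zeta), HBA2 and HBA1 (alpha) and HBQ1 (theta), and the beta-like genes on chromosome 11 in the order HBE1 (embryonic epsilon), HBG2 and HBG1 (fetal gamma), HBD and HBB (adult delta and beta). Each cluster is switched from its embryonic towards its adult genes during development, under a distant enhancer that the genes of the cluster share, and red cell precursors keep the output of both clusters close to balance. AHSP, the alpha haemoglobin stabilising protein, binds free alpha chains and keeps them from precipitating.

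Both alpha genes and both gamma genes are near-copies, which limits what counts per gene can say. In GENCODE release 29 (hg38) the coding sequences of HBA2 (chromosome 16, 172876 to 173710) and HBA1 (176680 to 177522) were the same over all 426 bases. Those of HBG2 (chromosome 11, 5253190 to 5254811) and HBG1 (5248079 to 5249859) differed at 2 of 441 bases, T227C and G410C, with the HBG2 base first and positions counted from the A of the start codon. The stretch around the second difference, coding bases 380 to 439 in exonic sequence on the minus strand, is shown because it is one of the few places where a read can tell the gamma genes apart (HBG2 at chr11:5253282-5253341, HBG1 at chr11:5248364-5248423, the differing base in capitals).
HBG2: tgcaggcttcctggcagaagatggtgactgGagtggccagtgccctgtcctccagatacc
HBG1: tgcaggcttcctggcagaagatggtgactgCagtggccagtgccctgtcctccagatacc
HBB and HBD, by comparison, shared 93.0% of their coding bases, and HBG2 and HBE1 83.45%. The split of reads within the alpha and gamma pairs is therefore uncertain, and the pairs are also given as sums. How reads that match both copies were counted is not known. If they were dropped, the sums, the alpha-like to beta-like ratio and the order of levels would miss them too, which was not tested.

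The libraries held between 10257141 and 14803031 counts. Levels are TMM-normalised CPM (read counts relative to the library total), which put ERG itself at 97.4, 103 and 104 with the ERG plasmid, against 28.1, 14.6 and 22.4 with the empty one (log2 fold change 2.23, SE 0.23, edgeR adjusted p = 0.011). The counts of ERG replicates 1 and 2 gave a chi-square of 2.20 per degree of freedom, above sampling noise, where the remaining pairs of libraries gave 21.6 to 86.9. Clustering of all tested genes put ERG replicates 1 and 2 with vector replicate 1 (called library set A) and ERG replicate 3 with vector replicates 2 and 3 (library set B), which cuts across the groups. A fit with the set as a term is given beside results it changes. The sets were found on these same libraries, so the p-values of that fit may be too low.

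Globin RNA was lower with ERG as a whole. The 9 globin genes took 0.219%, 0.210% and 0.416% of all counts in the ERG libraries and 0.791%, 1.42% and 1.198% in the vector libraries. The 95% Wilson interval was 0.413% to 0.419% in ERG replicate 3, the highest ERG library, and 0.786% to 0.797% in vector replicate 1, the lowest vector library, and covers counting error only. Summed, the globin genes stood at 2129, 2036 and 4181 CPM in ERG libraries and at 8044, 14719 and 12020 CPM in vector libraries. The groups did not overlap, and ERG replicate 3 was about midway on a log scale between the other ERG libraries and the lowest vector library. The difference of mean log2 values was -2.10, a 4.28-fold lower level with ERG (exact two-sided permutation p = 0.1, the smallest that 3 against 3 allows). It was -1.95 within library set A and -1.67 within library set B.

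All 10 genes had negative log2 fold changes, with a median of -1.91 against -0.01 over all 14203 tested genes. In 8 of the 10, every ERG library lay below every vector library, which held for 9.54% of all tested genes. HBG2, HBG1 and HBE1 passed an edgeR adjusted p of 0.05 as lower, 3 of the 10 genes, where 0.732% of all tested genes did. HBE1 and HBZ, which are in these counts, passed the low-count filter only with their vector libraries, where they were higher. With the set term 8 of the 10 were lower, all but HBB and HBD (5.96% of all tested genes). DESeq2 also called 8 lower (2.89%), and limma-voom 2, HBG2 and HBG1 (0.648%). When ERG replicates 1 and 2 were summed to 1 sample, edgeR called 0 of the 10 and 0 of all genes, with 8 and 1188 at an unadjusted p under 0.05. The calls of HBG2, HBG1 and HBE1 therefore rest on counting those ERG libraries as separate samples, though with the set term as well as the summing 8 of the 10 were lower (2.97% of all tested genes).

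**Figure D1:**
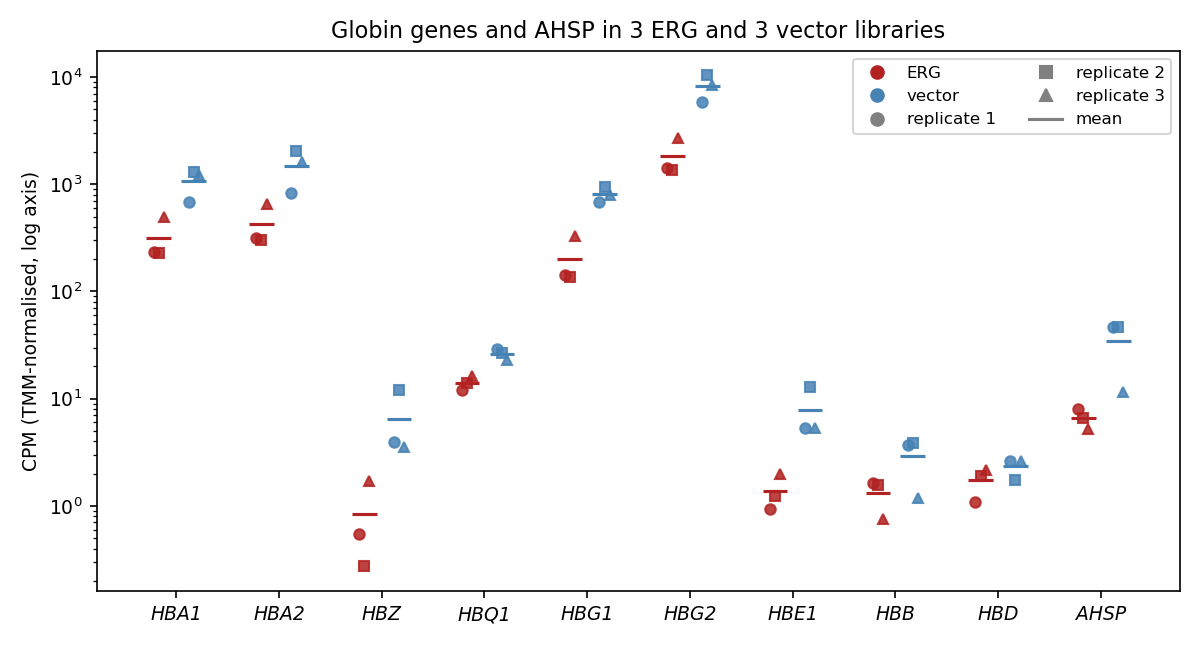
Normalised level of each globin gene and AHSP (CPM, log axis) in 3 ERG libraries (red) and 3 vector libraries (blue); marker shapes give the replicate and lines the group mean. HBG2 is the most abundant in both groups, and the ERG markers lie below the vector markers for all genes except HBB and HBD, whose groups overlap.

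The gamma genes carried most of the globin counts and fell with ERG. HBG2 was at 1423, 1354 and 2681 CPM in ERG libraries and at 5814, 10377 and 8365 CPM in vector libraries. The groups were far apart, with ERG replicate 3 the highest of its group and vector replicate 1 the lowest of the other. The fall was 4.50-fold (log2 -2.17, SE 0.36, 95% interval -3.02 to -1.32, edgeR adjusted p = 0.0318). HBG1 was at 142, 136 and 329 CPM in ERG libraries and at 688, 934 and 796 CPM in vector libraries, again without overlap. Its fall was 3.99-fold (log2 -1.997, SE 0.36, edgeR adjusted p = 0.0418). Summed to 1 row, HBG1 and HBG2 fell 4.45-fold (log2 -2.15, SE 0.37, edgeR adjusted p = 0.0337), where 0.725% of all tested rows were lower. The calls of both genes and of their sum were lost without ERG replicate 1, ERG replicate 2, vector replicate 2 or vector replicate 3 (for the sum, edgeR adjusted p = 0.221, 0.216, 0.124 and 0.107, log2 -1.95 to -2.14).

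The alpha genes had the next largest levels and differed in the same direction without passing. HBA2 was at 314, 300.2 and 659 CPM in ERG libraries and at 820.1, 2050.2 and 1614 CPM in vector libraries. HBA1 was at 234, 227 and 489.5 CPM in ERG libraries and at 677, 1301 and 1209 CPM in vector libraries. Neither gene's groups overlapped, and vector replicate 1 was the lowest vector library for both. Their log2 differences were -1.82 (SE 0.43, edgeR adjusted p = 0.0859) and -1.74 (SE 0.38, edgeR adjusted p = 0.0683), and that of their sum was -1.79 (95% interval -2.75 to -0.82, adjusted p = 0.08). With the set term the sum passed, at log2 -1.45 (adjusted p = 9.6e-05). It also passed without ERG replicate 3 (log2 -2.24, adjusted p = 0.0377) or without vector replicate 1 (log2 -2.05, adjusted p = 0.0379).

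**Figure D2:**
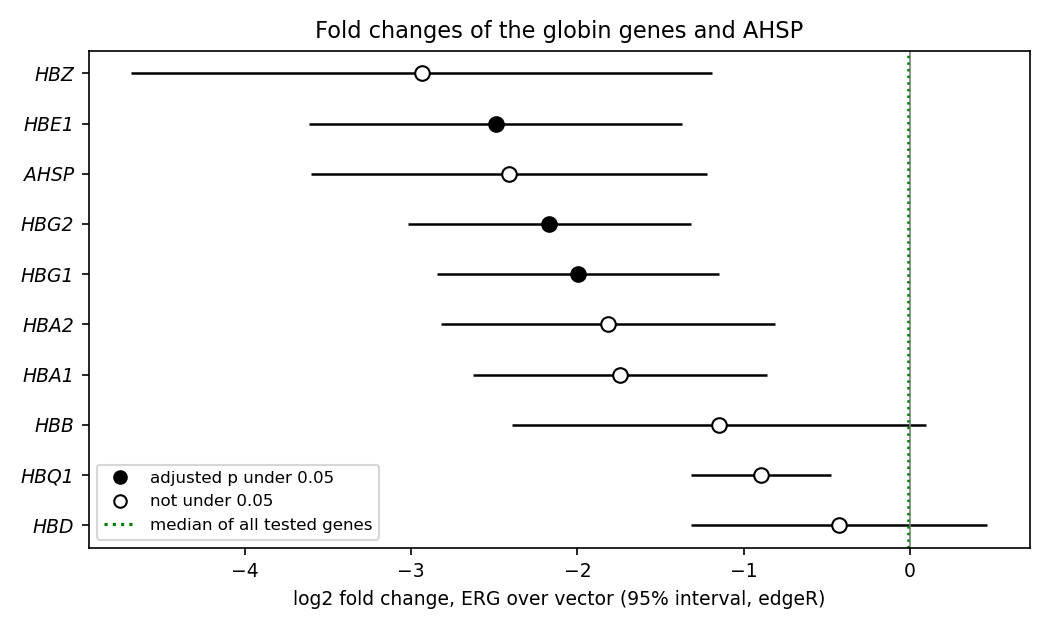
Log2 fold change of each gene, ERG over vector, with its 95% interval from edgeR; filled points passed an adjusted p of 0.05, open points did not, and the dotted line is the median of all tested genes (-0.01). All 10 points lie below 0, and the intervals of HBB and HBD reach past it.

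The embryonic genes were scarce in both groups, and HBE1 fell with ERG. HBE1, at chromosome 11 from 5268352 to 5269945, had 12, 18 and 29 counts in ERG libraries and 60, 168 and 55 counts in vector libraries. That was 0.938, 1.23 and 1.97 CPM with ERG and 5.28, 12.8 and 5.38 CPM with vector, a 5.62-fold fall without overlap (log2 -2.49, SE 0.48, edgeR adjusted p = 0.0482). Vector replicate 2 stood well above the other vector libraries, and without it the log2 difference was -1.94 and did not pass (edgeR adjusted p = 0.13). The call was also lost without any 1 of the ERG libraries or vector replicate 3 (edgeR adjusted p = 0.0545 to 0.252). HBZ, at chromosome 16 from 152687 to 154503, had 7, 4 and 25 counts in ERG libraries and 45, 158 and 36 counts in vector libraries. Only 1 ERG library reached 1 CPM, so HBZ passed the filter through its vector libraries. HBE1, and HBB below, reached 1 CPM in 2 ERG libraries, so they too needed vector libraries to pass. The groups of HBZ did not overlap, but its log2 difference of -2.94 had the widest interval of the 10 genes, -4.68 to -1.19 (edgeR adjusted p = 0.104). That difference ranged from -3.97 without ERG replicate 3 to -2.13 without vector replicate 2. With the set term HBZ passed as lower (log2 -2.64, SE 0.54, edgeR adjusted p = 0.0115).

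The adult beta-like genes were close to the detection limit in both groups. HBB, the adult beta chain gene (chromosome 11, 5225464 to 5227071), had 21, 23 and 11 counts in ERG libraries and 42, 51 and 12 in vector libraries. Both groups had their lowest library in replicate 3, and the groups overlapped (log2 -1.15, 95% interval -2.40 to 0.09, edgeR adjusted p = 0.352). HBD, which encodes the minor adult delta chain (5232838 to 5234648), had 14, 28 and 32 counts in ERG libraries and 30, 23 and 27 in vector libraries. In CPM this was 1.09, 1.92 and 2.17 with ERG and 2.64, 1.75 and 2.64 with vector, an overlap, with the log2 difference of smallest size among the 10 genes (-0.43, 95% interval -1.32 to 0.46, edgeR adjusted p = 0.62). That interval spans 0, so at this depth no difference in HBD was detectable.

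RefSeq promoter sequence was at hand for 1 of the 10 genes, HBD, and is shown because HBD had the smallest difference. The 300 bases run from 250 before to 50 after its RefSeq start at chr11:5234434-5234733 (GRCh38.p14, minus strand), with the matches to GATAA and ATAAA in capitals. The GENCODE transcript of HBD starts further upstream, at 5234648, so part of the window before the RefSeq start lies inside that transcript. Positions are counted from the RefSeq start.
HBD promoter: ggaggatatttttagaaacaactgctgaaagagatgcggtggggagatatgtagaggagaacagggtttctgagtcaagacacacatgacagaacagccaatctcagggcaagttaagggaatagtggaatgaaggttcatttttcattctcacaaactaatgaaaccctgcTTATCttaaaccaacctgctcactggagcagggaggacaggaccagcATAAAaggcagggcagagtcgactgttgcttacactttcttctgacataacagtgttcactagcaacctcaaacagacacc
On either strand, the GATA motif GATAA was found once, starting at -78 in reverse orientation, and ATAAA, the core of a TATA-like box, once at -31. CCAAT occurred once, at -153. CACCC, the core of the sites that KLF1 binds, and CCGGAA, the core of many ETS factor sites, had no match in this window. Of 35116 promoters of the same length, 22.7% held GATAA, 34.9% ATAAA, 34.6% CCAAT, 59.9% CACCC and 17.2% CCGGAA, counted on both strands. The motifs were searched separately, and none of the HBD matches overlap.

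HBQ1, which encodes the theta chain, whose part in haemoglobin is not established, lies at the far end of the alpha cluster (chromosome 16, 180453 to 181181). It had 154, 204 and 240 counts in ERG libraries and 329, 352 and 236 counts in vector libraries, or 14.1 ± 2.13 CPM with ERG and 26.3 ± 2.97 CPM with vector (SD, n = 3 each). In CPM, which allows for depth, the groups did not overlap. The difference was 1.86-fold (log2 -0.90, SE 0.18, 95% interval -1.32 to -0.48) and missed the threshold (edgeR adjusted p = 0.0547, with the set term 0.00624).

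AHSP, at chromosome 16 from 31527864 to 31528803 and far from the alpha cluster, was at 7.98, 6.58 and 5.16 CPM in ERG libraries and at 47.0, 46.2 and 11.5 CPM in vector libraries. The groups did not overlap, but vector replicate 3 was far below the other vector libraries and not far above the ERG libraries. The log2 difference was -2.41 (SE 0.51, 95% interval -3.60 to -1.22, edgeR adjusted p = 0.0639). The set-term fit put it past the threshold (log2 -2.60, adjusted p = 0.00424), as did leaving out vector replicate 3 (log2 -2.82, adjusted p = 0.0388). AHSP did not follow the alpha genes from library to library. Per 1000 alpha-like counts there were 14.2, 12.1 and 4.42 AHSP counts in ERG libraries and 30.7, 13.6 and 4.02 in vector libraries. The groups overlapped almost throughout, with both replicate 3 libraries lowest (log2 ratio differing by -0.38, exact permutation p = 0.8, adjusted over the 10 measures of balance and shares 0.889). Within library sets A and B the difference was -1.22 and -0.74. Without ERG replicate 3 or vector replicate 1 that difference had the other sign, at 0.15 and 0.31.

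The ratio of alpha-like to beta-like RNA was higher in every ERG library than in every vector library, by a difference whose exact test cannot pass in this design. Per 100 beta-like counts the ERG libraries held 35.7, 36.2 and 38.7 alpha-like counts and the vector libraries 23.5, 29.9 and 31.1. The lowest of the 6 was vector replicate 1. The alpha-like sum was 3.47-fold lower with ERG (log2 -1.79) and the beta-like sum 4.58-fold lower (log2 -2.19). Their ratio was 1.32-fold higher with ERG, a log2 difference of 0.40 (exact permutation p = 0.1, the smallest possible; adjusted over 10 measures 0.4). The difference was 0.62 within library set A and 0.34 within library set B, 0.39 with HBQ1 left out, and 0.40 when counts were divided by transcript length. Leaving out vector replicate 1, the lowest library, brought it to 0.27.

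**Figure D3:**
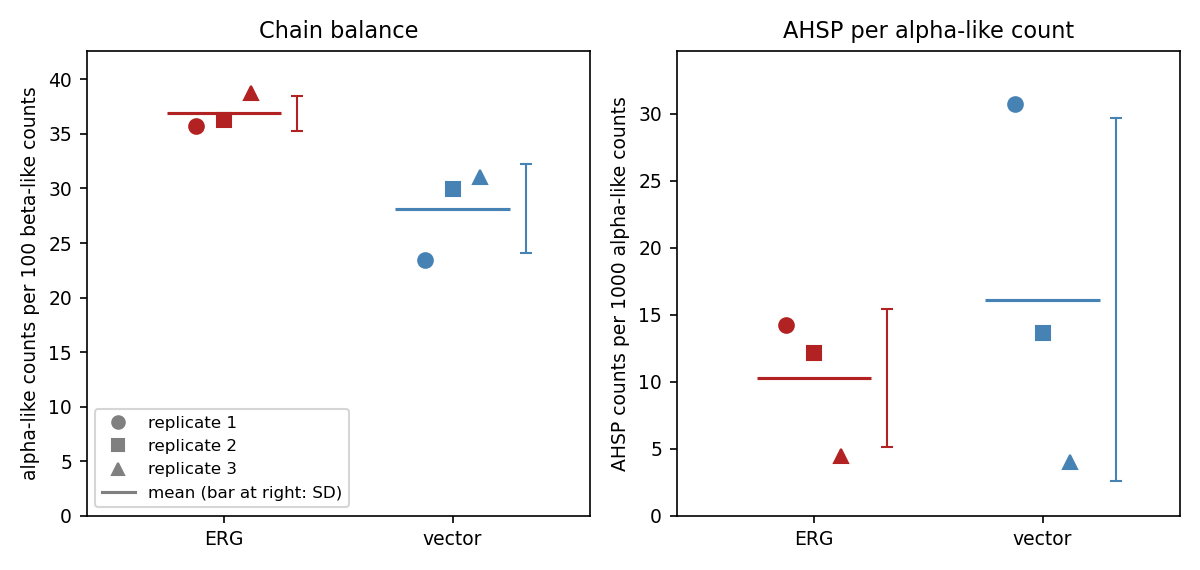
Left, alpha-like counts (HBA1, HBA2, HBZ, HBQ1) per 100 beta-like counts (HBB, HBD, HBG1, HBG2, HBE1); right, AHSP counts per 1000 alpha-like counts; points are libraries, lines group means and side bars SD (n = 3 each). On the left the ERG libraries (35.7 to 38.7) all lie above the vector libraries (23.5 to 31.1), on the right the groups overlap.

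The beta-like output was almost wholly fetal in both groups. HBG1 and HBG2 together made up 99.8%, 99.7% and 99.8% of beta-like counts in ERG libraries and 99.8%, 99.8% and 99.9% in vector libraries, a difference of -0.09 percentage points (exact permutation p = 0.3, adjusted 0.5). The adult share, HBB and HBD, was 0.175%, 0.234% and 0.0969% in ERG libraries and 0.0973%, 0.0497% and 0.0416% in vector libraries. The Wilson intervals of ERG replicate 3 (0.0719% to 0.13%) and vector replicate 1 (0.0773% to 0.122%) overlapped, as did the groups (exact permutation p = 0.2, adjusted 0.4). The HBE1 share was between 0.0598% and 0.0826% in ERG libraries and between 0.0587% and 0.113% in vector libraries (exact permutation p = 0.7, adjusted 0.875). With 3 libraries a group, none of these exact tests could have gone below p = 0.1. The difference in adult share was 0.107 percentage points within library set A and 0.0512 within set B, and between 0.0728 and 0.141 with any 1 library left out, each time higher with ERG.

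Among the alpha-like genes, HBZ made up 0.0976%, 0.0506% and 0.145% of counts in ERG libraries and 0.259%, 0.355% and 0.124% in vector libraries. Vector replicate 3 lay among the ERG libraries (exact permutation p = 0.2, adjusted 0.4). HBQ1 made up 2.15%, 2.58% and 1.40% in ERG libraries and 1.89%, 0.791% and 0.81% in vector libraries, with the lowest ERG library under the highest vector library (exact permutation p = 0.2, adjusted 0.4). Within the copy pairs the splits overlapped between the groups. HBG2 took 89.1% to 90.9% of the gamma counts in ERG libraries and 89.4% to 91.7% in vector libraries, and HBA2 took 56.9% to 57.4% of the alpha counts in ERG libraries and 54.8% to 61.2% in vector libraries (exact permutation p = 0.5 and 0.9, adjusted 0.714 and 0.9).

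**Figure D4:**
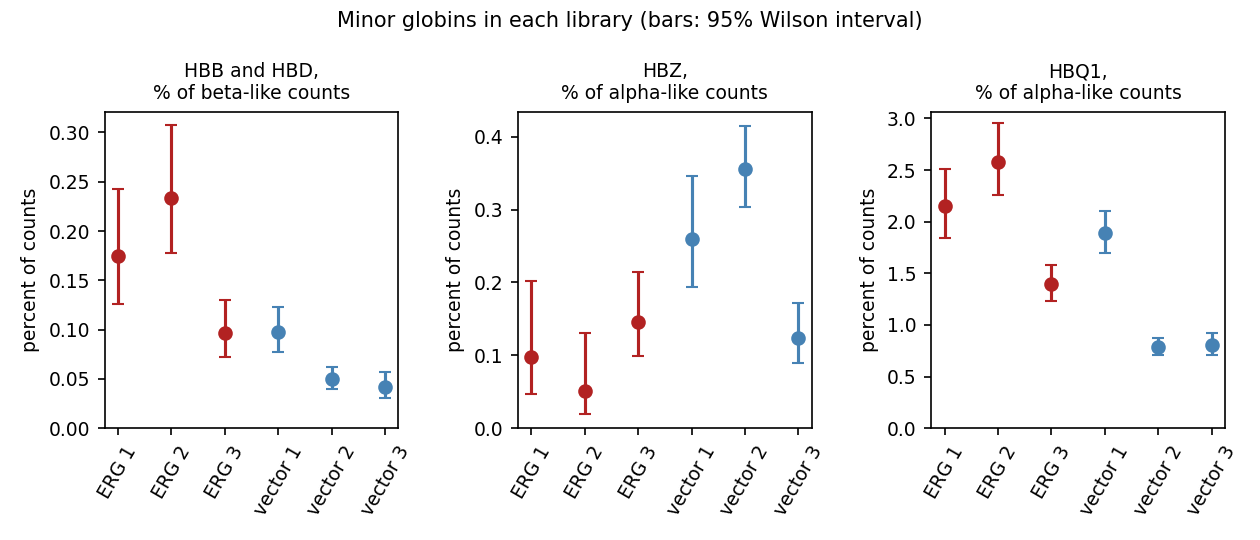
Share of the adult genes HBB and HBD among beta-like counts and of HBZ and HBQ1 among alpha-like counts in each library (percent, bars 95% Wilson interval). ERG replicates 1 and 2 hold the highest adult shares (0.175% and 0.234%), and in each panel at least 1 ERG library has an interval that reaches that of a vector library.

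Counts were divided by transcript length to order the genes by level, and 6 of the 10 kept their rank between the groups (524 to 785 bases, from the GENCODE transcript matched to RefSeq). In CPM per kilobase, HBG2 led with 2963 ± 1216 in ERG libraries and 13331 ± 3724 in vector libraries (SD, n = 3 each). HBA2 followed at 737 ± 353 with ERG and 2595 ± 1083 with vector, then HBA1 at 549 ± 259 and 1841 ± 584 and HBG1 at 259 ± 141 and 1035 ± 158, in the same order of groups. The ranges of HBA2 and HBA1 over the vector libraries overlapped in this measure, as did those of HBA1 and HBG1, while HBG2 stood clear of HBA2. Within every single library, though, HBA2 was above HBA1 and HBA1 above HBG1. The ranks that differed were those of AHSP and HBQ1, and of HBZ (rank 10 with ERG, 8 with vector) and HBD (rank 8 with ERG, 10 with vector). In ERG libraries AHSP (9.85 to 15.2 CPM per kilobase) lay wholly below HBQ1 (22.5 to 30.4), and in vector libraries AHSP (21.8 to 89.7) spanned HBQ1 (43.1 to 54.0). HBE1, HBZ, HBB and HBD were under 4 CPM per kilobase in every ERG library and under 21 in every vector library, and neighbours in that order overlapped.

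Within the groups, levels of the alpha and gamma genes differed between the library sets, and those of the other genes did so less regularly. ERG replicate 3 was above the mean of ERG replicates 1 and 2 by 1.25 (HBG1), 0.95 (HBG2), 1.09 (HBA1) and 1.10 (HBA2) on the log2 scale, and by 2.13 for HBZ. HBE1 differed by 0.87, HBD by 0.58 and HBQ1 by only 0.33, and HBB and AHSP had the other sign, -1.11 and -0.49. Vector replicates 2 and 3 were above vector replicate 1 by 0.94 and 0.84 for HBA1, 1.32 and 0.98 for HBA2, 0.84 and 0.52 for HBG2 and 0.44 and 0.21 for HBG1. For HBZ vector replicate 2 was above it by 1.603, and vector replicate 3 differed by -0.17. The same 2 differences were 1.28 and 0.03 for HBE1, -0.11 and -0.33 for HBQ1 and -0.59 and 0.0005 for HBD. They were 0.07 and -1.65 for HBB and -0.03 and -2.04 for AHSP. The summed level of a list of translation and chaperone genes, given below, also followed the sets, though not every gene of the list did. Its part in the globin values was not tested.

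The differences are given here in gene order from the embryonic end. On chromosome 16 the log2 differences ran -2.94 (HBZ), -1.82 (HBA2), -1.74 (HBA1) and -0.90 (HBQ1). On chromosome 11 they ran -2.49 (HBE1), -2.17 (HBG2), -1.997 (HBG1) and -0.43 (HBD), with HBB at -1.15 out of order. Neighbouring genes had overlapping intervals, and the order was not kept by every fit. With the set term HBA1 (-1.455) was beyond HBA2 (-1.446), and without vector replicate 2 HBG2 (-1.96) was beyond HBE1 (-1.94). The other tested genes within 100 kb, a window chosen after the data were seen, are given for comparison. Beside the alpha cluster, 8 genes had log2 differences from -0.69 (RHBDF1) to 0.17 (MPG), with edgeR adjusted p of 0.397 or more. NPRL3, whose introns hold the alpha globin enhancers, was at -0.25 (SE 0.15), and LUC7L, next to HBQ1, at -0.09 (SE 0.12). Between the gamma genes and HBD, the non-coding RNA gene BGLT3 had a log2 difference of -1.41 (SE 0.41, adjusted p = 0.147) and the pseudogene HBBP1 one of -0.95 (SE 0.31, adjusted p = 0.193). In the set-term fit HBBP1 fell (log2 -0.71, adjusted p = 0.00463).

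**Figure D5:**
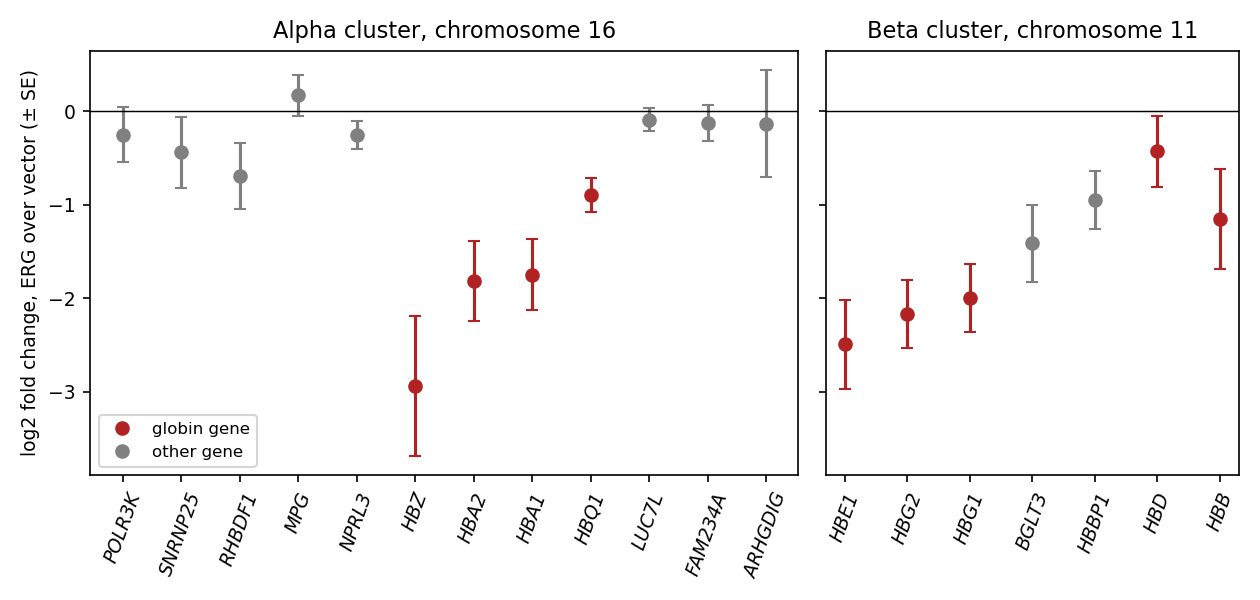
Log2 fold change, ERG over vector (± SE), of the globin genes (red) and of other tested genes within 100 kb (grey), in gene order from the embryonic end, not to scale. In the alpha cluster the grey genes lie between -0.69 and 0.17 and the globin genes between -2.94 and -0.90; in the beta cluster BGLT3 and HBBP1 lie at -1.41 and -0.95.

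Of 16 transcription factors known to act at the globin loci, 2 fell and 1 rose (median log2 -0.08, where 0.732% of all tested genes were lower and 1.47% higher). With the set term 5 were lower and 3 higher, where 5.96% of all tested genes were lower and 7.2% higher. KLF1, which activates globin and other red cell genes, fell to 199 ± 44.6 CPM in ERG libraries, against 392 ± 7.36 CPM in vector libraries (SD, n = 3 each; edgeR adjusted p = 0.0423). LMO2, a bridging protein of the GATA1 and TAL1 complex, fell to 148 ± 10.1 CPM with ERG, against 284 ± 30.8 CPM with vector (adjusted p = 0.0236). GATA2, the GATA factor of progenitors, rose to 1177 ± 148 CPM with ERG, against 548 ± 107 CPM with vector (adjusted p = 0.0416). LDB1, which joins the enhancers to the globin genes, was at log2 -0.53 (edgeR adjusted p = 0.116, with the set term 0.00821), and GATA1, the main GATA factor of red cell precursors, at log2 -0.28 (edgeR adjusted p = 0.518, with the set term 0.0246). Both are given here with their values known, not by the rule for naming genes.

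Of 25 tested repressors of fetal globin and their partners, edgeR called 0 (median log2 -0.08), where 0.732% of all tested genes were lower and 1.47% higher. DESeq2 also called 0, and with the set term 2 were lower, where 5.96% of all tested genes were. Of the 25, 6 had an unadjusted edgeR p under 0.05. Of all 14203 tested genes, 2258 did in the edgeR fit scaled without the 10 member genes. The most abundant, the nucleosome remodeller CHD4 and the DNA methyltransferase DNMT1, differed by 0.09 and 0.03 on the log2 scale, with edgeR adjusted p = 0.848 and 0.952. BCL11A, ZBTB7A and MYB, the repressors best known from human genetics and chosen here with their values known, were at 0.05 (SE 0.19), -0.28 (SE 0.15) and -0.26 (SE 0.13). Of 7 RNA-binding and chromatin genes of the fetal and embryonic programme, 2 were tested, IGF2BP2 (log2 -0.15) and ARID3A (log2 -0.17), and neither passed (edgeR adjusted p = 0.66 and 0.754).

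Of 15 genes of globin translation control, chaperoning and clearance, 1 fell and 0 rose (median log2 -0.17), against 0.732% lower and 1.47% higher over all tested genes. The set-term fit had 2 lower and 1 higher. BLVRB, a biliverdin reductase of the haem breakdown route, fell to 152 ± 21.4 CPM in ERG libraries, against 433 ± 156 CPM in vector libraries (edgeR adjusted p = 0.0359). Summed over the list, levels were 3643, 3586 and 7743 CPM in ERG libraries and 4527, 7597 and 8785 CPM in vector libraries, low in library set A and high in set B. That sum is led by HSP90AA1 (738 to 829 CPM in set A, 2758 to 3305 in set B) and HSPA8 (416 to 572, then 2069 to 2467). ATF4 (743 to 860 CPM in set A, 394 to 406 in set B) and PPP1R15A (297 to 327, then 132 to 158) went the other way. These genes were named after their values were seen. Of 32 tested red cell maturation genes other than globins, 4 fell and 0 rose (median log2 -0.61). With the set term 21 were lower and 1 higher, again against 5.96% and 7.2% of all tested genes. Among the 4 that fell in the fit without that term were EPOR, the erythropoietin receptor (log2 -1.30), and CA1, carbonic anhydrase 1 (log2 -0.96), with edgeR adjusted p of 0.01 and 0.0422. These medians are smaller in size than that of the globin genes and AHSP (-1.91).

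Markers of other cell types moved with the groups, and their part in the globin result was not tested. The counts below stand against 1.47% higher and 0.732% lower over all tested genes, and with the set term against 7.2% and 5.96%. Of 10 tested megakaryocyte and platelet markers 6 rose and 0 fell, and 7 and 0 with the set term (PF4 and VWF were not among the genes of the table), summed at 1331 to 2487 CPM in ERG libraries and 547 to 1177 CPM in vector libraries. PPBP, SELP and CLEC1B, counted among those that rose, reached 1 CPM in the 3 ERG libraries and in no vector library. They passed the filter only by being high with ERG, so they could hardly have been counted as lower. Of 9 tested mast cell, basophil and eosinophil markers 4 rose and 0 fell, and 7 were higher and 1 lower with the set term (CLC and EPX not in the table), summed at 3574 to 3777 CPM in ERG libraries and 1928 to 2722 CPM in vector libraries, and of 3 tested stem and progenitor markers 2 rose and 0 fell (summed at 170 to 216 CPM with ERG, against 35.6 to 81.9 CPM with vector). The mast cell, basophil and eosinophil marker lower in the set-term fit was PRG2, the eosinophil major basic protein, named after its value was seen (log2 -0.53, edgeR adjusted p = 0.391, with the set term 0.0188). ITGB3, the platelet integrin beta-3 chain, rose 14.6-fold, MS4A2, a chain of the IgE receptor, 32.4-fold, and KIT, the stem cell factor receptor, 5.16-fold. The MS4A2 fold rests on vector levels of 2.82, 2.13 and 0.978 CPM, against 52.5, 51.6 and 91.0 CPM with ERG. MS4A2, and FCER1A, which was counted as higher with the set term, passed the filter only with their ERG libraries, where they were higher. The erythroid markers, in which EPOR and KLF1 passed, had 2 of 11 lower and 0 higher, 5 lower with DESeq2 and 9 with the set term, summed at 2237 to 3258 CPM in ERG libraries and 3796 to 5139 CPM in vector libraries. Of 2 granulocyte and monocyte and 3 lymphoid markers tested, edgeR and DESeq2 both called 0, with 2 and 1 at an unadjusted p under 0.05. In the set-term fit LYZ was lower (log2 -0.97, adjusted p = 0.00189) and CSF3R and CD79A higher (log2 1.15 and 0.73, adjusted p = 0.000795 and 0.00548). The first list was summed at 92.3 to 206 CPM in ERG libraries and 102 to 254 CPM in vector libraries, and the second at 30.6 to 49.9 CPM with ERG and 16.4 to 35.2 CPM with vector.

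The genes whose log2 level followed the summed globin genes most closely over the 6 libraries were RAMACL, ATP13A3, CXXC5, TCTN2 and MGAT3, with Pearson correlations of 0.997, 0.997, 0.996, 0.995 and 0.994. Of the 11111 genes compared, 251 reached 0.95. The 5 named genes were picked for following a sum that was lower in every ERG library. Their own lower levels with ERG (for ATP13A3 1.99-fold, for MGAT3 log2 -0.86) follow from that choice, and no test of them is given. The globin genes are themselves parts of the sum, so their correlations with it follow in part from their abundance. AHSP, which is not in the sum, had a correlation of 0.72.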

How the data were processed

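What the authors deposited is one table of whole-number counts for each gene and library, despite a name that mentions CPM. The submitters' processing notes list hg38 as the build and edgeR 3.32.1 among the tools. The aligner, the counting tool, the annotation and whether strand was kept are not given in the sources used here. The second-highest CPM of every gene was at least 1.01, so low genes had been removed before deposit. The columns headed NC were taken as the vector samples, the only group besides ERG, and 0 columns of sample values were left unused.

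The counts were analysed with edgeR 4.0.16 (R 4.3.3): TMM normalisation, a filter keeping the 14203 genes that reached 1 CPM in 3 or more libraries, quasi-likelihood test, Benjamini-Hochberg adjustment over all of them, threshold 0.05, two-sided. SE is the log2 fold change divided by the square root of F. The procedure was tested on simulated data. Single values per library were compared by exact permutation. DESeq2 1.42.0, limma 3.58.1 (voom), other scalings, no filter, a replicate block, a set term and left-out libraries were alternatives. Differences within library sets used the single values per library, without a prior count. Clustering of the libraries used log2 CPM with a prior count of 2. The genes named are the 10 members, ERG, the 5 genes most like the globin sum and, per list, up to 4 members past the threshold by size of change, or the 2 most abundant where none passed; some genes that the rule names are not reported here. The members and lists were chosen with earlier results of these data known. Gene positions and transcripts come from GENCODE release 29 and the promoter from RefSeq.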

Additional observations from a re-analysis of the deposited data

How the results depend on the processing

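Low counts limit HBZ, HBE1, HBB and HBD, each with under 170 counts in every library, and 3 libraries a group limit exact tests to p = 0.1. The log2 fold changes of all 10 genes stayed negative in all 16 alternatives run. HBA1, HBA2, HBZ, HBQ1, AHSP and the HBA1 and HBA2 sum passed under 4 that kept all libraries, at -1.76, -1.83, -2.97, -0.91, -2.41 and -1.80 with DESeq2, at -1.78, -1.81, -2.86, -0.90, -2.22 and -1.80 with the replicate number as a block, at -1.45, -1.45, -2.64, -0.88, -2.60 and -1.45 with the library set term, and at -1.44, -1.44, -2.60, -0.84, -2.58 and -1.44 with the set term and ERG replicates 1 and 2 summed (an alternative chosen after the data were seen). In each of the 4 fits 8 of the 10 genes were lower, and over all genes 596, 582, 1022 and 523 were higher and 410, 323, 847 and 410 lower, against 209 and 104. With ERG replicates 1 and 2 summed alone, HBG1, HBG2, HBE1 and the gamma sum did not pass (-1.78, -2.001, -2.37 and -1.98), and edgeR called 0 members, 0 genes higher and 0 lower (1188 at an unadjusted p under 0.05), with 1 sample fewer. HBE1 did not pass in limma-voom (-2.43).

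HBA1, HBA2 and their sum also passed without ERG replicate 3 or vector replicate 1, and AHSP without vector replicate 3. Leaving out 1 library at a time gave 0 to 5 members lower, 0 to 319 genes higher and 0 to 135 lower. The log2 ranges were -2.19 to -1.55 for HBA1, -2.27 to -1.52 for HBA2, -2.24 to -1.54 for their sum, -2.53 to -1.77 for HBG1, -2.55 to -1.96 for HBG2, -2.55 to -1.95 for their sum, -2.83 to -1.94 for HBE1 and -2.82 to -2.13 for AHSP. HBG1, HBG2 and HBE1 did not pass without ERG replicate 1 or 2 or vector replicate 2 or 3, nor HBE1 without ERG replicate 3. Where no member was called (ERG replicates 1 and 2 and vector replicate 2, each left out in turn), 8 had an unadjusted p under 0.05. Over all tested genes 1195, 1163 and 1640 did, in the same order. The split of gamma counts changed sign, from -0.51 to 0.10 percentage points without ERG replicate 3 (range from -1.22) and to 1.51 within library set A, and that of the alpha pair from -0.52 to 1.21 without vector replicate 2 (range from -1.98) and to 2.30 within set A. The AHSP to alpha-like ratio ranged from -1.16 to 0.31. The cause was not tested. Other scalings and no filter changed no call of the 10 genes.

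The replicate numbers did not pair the libraries: deviations from the group means of same-numbered libraries correlated at 0.628, -0.285 and 0.589 over genes, and ERG replicate 2 correlated best with vector replicate 1. Averaged within replicate numbers, the block left the chain balance at 0.40 (exact sign-flip p = 0.25, the smallest possible). Of 384 further values, which are the counts of calls in the gene lists and the fold changes of ERG and HBBP1, 297 stayed within 1.5 times or on the same side of the threshold, 37 were counts or calls gained and 50 lost.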

Other observations

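By raw counts, not divided by length, HBG2 ranked 27, 30 and 16 among all genes of the table in ERG libraries and 5, 3 and 1 in vector libraries, so it was the gene with the most counts in vector replicate 3. AHSP ranked 10358, 10718 and 10919 in ERG libraries and 5061, 5174 and 9314 in vector libraries.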
